A study of Mus musculus with 4 samples.

Results

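The immune checkpoint receptors and ligands described here are 10 genes of the 32285 in the deposited count matrices, found by gene symbol. They are the PD-1 ligands Cd274 (PD-L1) and Pdcd1lg2 (PD-L2), the receptors Pdcd1 (PD-1), Ctla4, Lag3, Tigit and Havcr2 (TIM-3), the ligand Cd200 with its receptor Cd200r1, and Vsir (VISTA). All 10 were detected. None of them was used to assign a cell to a class.

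Checkpoint receptors are surface proteins that dampen the activation of lymphocytes and myeloid cells. PD-1 is induced on T cells by antigen receptor signalling and is engaged by PD-L1, which many cell types carry and interferon gamma raises, and by PD-L2, whose pattern is narrower. CTLA-4 competes with the activating receptor CD28 for CD80 and CD86 and is held at high levels by regulatory T cells. LAG-3, TIGIT and TIM-3 are further inhibitory receptors of T and NK cells, and TIM-3 is also carried by monocytes and dendritic cells. CD200 on lymphocytes, endothelium and neurons restrains myeloid cells through CD200R1, and VISTA is most abundant on myeloid cells.

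In GRCm38 (GENCODE M21 annotation), Cd274 lies on chromosome 19 from 29367455 to 29388095 and Pdcd1lg2 follows on the same strand from 29410919 to 29471161, with 22.8 kb between the genes. Pdcd1 lies on chromosome 1 from 94038305 to 94052553 and Ctla4 on the same chromosome from 60887000 to 60915832. Lag3 is on chromosome 6 from 124904361 to 124911705 and Havcr2 on chromosome 11 from 46454935 to 46481255. Tigit (43648867 to 43664146), Cd200r1 (44765736 to 44794978) and Cd200 (45382135 to 45409053) share chromosome 16. Vsir lies on chromosome 10 from 60346851 to 60372684, inside Cdh23 on the opposite strand, and Cd274 and Pdcd1lg2 each overlap an antisense transcript. Whether counting used the strand was not given in the sources used here. If it did not, reads of these 3 genes and of their antisense partners could not be told apart.

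Female C57/Bl6 mice aged 6 to 8 weeks gave the lung and blood cells. All mice carried a subcutaneous tumour from 250000 B16F10 melanoma cells and lost the spleen on day 0, just after an intrasplenic injection of 800000 B16F10 cells (metastasis arm, for the liver metastases this model gives) or of saline (sham arm). Tissue was collected on day 7, lungs through a filter and live/dead columns and blood by density centrifugation with enrichment of CD45+ leukocytes. The controls thus also had a tumour and no spleen, B16F10 is 1 cell line, and how many mice went into a library was not given in the sources used here. With a single library for every tissue and arm, the differences below have no replicate check, and no test across samples was possible. Every interval is a 95% interval for counting error alone.

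Each of the 4 libraries contained 112079231 to 132540945 UMIs (counted transcript molecules), of which 43.7% to 78.6% were haemoglobin. After the cell filter and a per-cell marker gate, 7369 to 11938 cells per library had a class, and they held 4372, 7087, 3933 and 9456 UMIs of the 10 genes in lung (metastasis, sham) and blood (metastasis, sham), an order kept wherever 4 values follow each other. Between 9.01% and 14.8% of filtered barcodes carried markers of a second lineage and were left out, and 109 to 316 barcode sequences were shared by any pair of libraries (at most 1.07% of the smaller one). In the 6 main leukocyte classes every listed marker reached 20 CPM over the pooled libraries. The gate selects cells by these markers, so this is no check of the classes. Cells of the metastasis libraries were shallower in lymphocytes, with medians of 2774 against 3522 UMIs in lung T cells and 3703 against 5402 in blood T cells. Levels are therefore given as UMIs per 1000000 UMIs of the class without haemoglobin (CPM), and shares of cells also after thinning each cell to 1000 UMIs.

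Cd274 was highest in non-classical monocytes, patrolling monocytes that carry little Ly6c2, in 3 of the 4 libraries, and in B cells in blood metastasis. The 30 alveolar macrophages of lung sham came second in that library, at 106.2 CPM (19 UMIs). In non-classical monocytes it reached 213.8 CPM in lung metastasis (133 UMIs in 195 cells), 110.4 in lung sham (28 UMIs, 80 cells), 67.9 in blood metastasis (29 UMIs, 77 cells) and 126.5 in blood sham (126 UMIs, 146 cells). Lung metastasis was the highest of the 4 libraries and blood metastasis the lowest. A Cd274 UMI was present in 37.9% (31.1 to 45.2), 27.5% (18.1 to 38.6), 20.8% (12.4 to 31.5) and 44.5% (36.3 to 53.0) of these cells in the same order, and in 17.6%, 16.0%, 10.4% and 11.8% after thinning. After thinning the gap between the arms was smaller in both tissues.

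In B cells Cd274 stood at 98.6, 80.4, 114.3 and 98.6 CPM in lung (metastasis, sham) and blood (metastasis, sham), on 336 to 3134 UMIs. As a ratio of the highest to the lowest library, this was the narrowest range of Cd274 among the 6 main leukocyte classes. NK cells had 73.0 and 59.9 CPM in lung against 22.3 and 25.3 CPM in blood, and T cells 39.7 and 32.5 against 27.1 and 17.5. Neutrophils had 90.6 CPM in lung metastasis (196 UMIs) and 81.2 in lung sham, where only 6 UMIs in 38 cells were counted, against 30.04 in blood metastasis and 49.4 in blood sham. Classical monocytes, the inflammatory Ly6c2-rich monocytes, were lowest, with 28.9, 10.8, 11.4 and 1.85 CPM on 2 to 12 UMIs. Red cell barcodes, which should lack the gene, held it in 0.409%, 2.73%, 0.5002% and 1.77% of barcodes at medians of 646 to 866 UMIs. Those cells are much shallower than leukocytes, and among the cells deep enough to be thinned the shares were 0.771%, 7.04%, 0.966% and 1.64%. In lung sham this background was 34.3 CPM, so T cells (32.5 CPM and 3.23% after thinning) were not above it there, and B cells (6.99%) and NK cells (5.38%) exceeded it in CPM and not in the thinned share. In blood sham it was 17.0 CPM on 4 UMIs, close to T cells (17.5 CPM and 1.86% after thinning). Classical monocytes of both sham libraries were below it.

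Pdcd1lg2 was low throughout, and its highest class differed between libraries. B cells held 31.4, 20.3, 13.9 and 13.8 CPM in lung (metastasis, sham) and blood (metastasis, sham) (58 to 439 UMIs), and NK cells 27.3, 21.7, 7.42 and 4.05 CPM, on 55 and 93 UMIs in lung and 1 and 4 in blood. T cells had 12.8, 7.74, 2.90 and 1.19 CPM. Both lung libraries were above both blood libraries in all 3 lymphocyte classes. Non-classical monocytes had 14.5, 11.8, 2.34 and 20.1 CPM on 9, 3, 1 and 20 UMIs, and were the highest class of blood sham. Classical monocytes had 0, 1, 4 and 0 UMIs. Neutrophils had 37 UMIs in lung metastasis (17.1 CPM), none in 38 cells of lung sham, which allows a share of up to 7.89%, and 8 and 1 UMIs in blood. Red cell barcodes held Pdcd1lg2 in 0.0356%, 0.943%, 0 of 2999 (up to 0.1%) and 0.885% of barcodes. In lung sham they stood at 10.3 CPM and 2.35% of barcodes after thinning, where T cells had 7.74 CPM and 0.768%, B cells 20.3 CPM and 1.68%, and NK cells 21.7 CPM and 2.40%. In blood sham red cell barcodes stood at 8.48 CPM on 2 UMIs, where T cells had 1.19 CPM and NK cells 4.05 CPM. The T cell levels of both sham libraries and the NK cell level of blood sham were therefore not above this background. They were not read as expression.

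Pdcd1 was a T cell gene in these libraries. T cells held 74 UMIs in lung metastasis (14.1 CPM), 301 in lung sham (17.8 CPM), 7 in blood metastasis (3.39 CPM) and 12 in blood sham (0.954 CPM). Among the main leukocyte classes, all other UMIs came from NK cells (2 and 4 in lung) and 1 non-classical monocyte. B cells had none in any library (0 of 7701 cells in blood sham allows a share of up to 0.0390%), and neutrophils had none either (0 of 1792 cells in blood metastasis allows up to 0.167%). The share of T cells with a Pdcd1 UMI was 2.68% (1.99 to 3.53), 3.81% (3.28 to 4.41), 1.11% (0.410 to 2.41) and 0.486% (0.243 to 0.867), and 1.22%, 1.60%, 0.372% and 0.177% after thinning. Lung sham was highest and blood sham lowest on each of these scales. Red cell barcodes held 6 Pdcd1 UMIs in lung sham and 0 in each of the other libraries. In lung sham this background was 6.87 CPM, and 1.41% of barcodes after thinning. T cells there exceeded it in CPM, while their thinned share was close to it.

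Within T cells, Pdcd1 CPM were highest in 2 subsets of lung, which held 35 and 68 of the 301 UMIs of lung sham. The remaining T cells, outside the named subsets, held 99 at a lower level (20.8 CPM), and CD8 T cells with memory or effector markers held 64. These remaining cells lacked a Foxp3 UMI. They had either no Cd4, Cd8a, Cd8b1 or Trdc UMI, or UMIs of both Cd4 and Cd8a or Cd8b1. CD4 T cells with at least 2 memory or activation markers held 134.7 CPM in lung sham, with a UMI in 18 of 69 cells (26.1%, 16.3 to 38.1). Gamma delta T cells, identified by a Trdc UMI without Cd4, Cd8a, Cd8b1 or Foxp3, held 116.2 CPM in lung sham (38 of 184 cells, 20.7%, 15.1 to 27.2) and 105.0 CPM in lung metastasis (13 of 70 cells, 18.6%, 10.3 to 29.7). The gamma delta values of the 2 lung libraries overlapped in their intervals. CD8 T cells with memory or effector markers had 15.7 and 8.64 CPM in lung sham and lung metastasis, and other CD8 T cells had 1.41 CPM and 0 UMIs in 518 cells. In lung sham, the CD8 T cells with memory or effector markers (1.37% after thinning) exceeded red cell barcodes in CPM only. Other CD8 T cells of lung sham were below red cell barcodes (6.87 CPM), and their level was not read as expression. The class boundary of the CD8 subsets was broad: 816 of 2177 CD8 T cells in lung sham had 1 marker and 527 had 2.

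Of Pdcd1, Ctla4, Lag3, Tigit and Havcr2, Ctla4 had the most UMIs in T cells, 562, 1373, 232 and 642 in lung (metastasis, sham) and blood (metastasis, sham). These corresponded to 107.2, 81.1, 112.3 and 51.1 CPM. Blood sham was the lowest library and its interval (47.2 to 55.2 CPM) did not reach the others. A UMI was present in 17.7%, 17.9%, 18.6% and 14.9% of T cells, and in 9.68%, 6.94%, 8.38% and 4.65% after thinning. Neutrophils held Ctla4 in 0.535% and 0.167% of cells in the metastasis libraries (medians of 1625 and 2374 UMIs), and in 0 of 38 and 0 of 353 cells in the sham libraries, which allows up to 7.89% and 0.850%. B cells had 9.68, 7.37, 14.1 and 8.28 CPM, with a UMI in 1.46% to 2.60% of cells. Red cell barcodes had 4.76, 34.3, 5.15 and 25.4 CPM of Ctla4, below T cells in each library, although in lung sham their share after thinning (6.57%) was close to that of T cells. B cells of both sham libraries were not above this background, and their level there was not read as expression.

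T cells with a UMI of Foxp3, the transcription factor of regulatory T cells, had the highest Ctla4. In lung sham 26 of 32 such cells carried a Ctla4 UMI (81.2%, 63.6 to 92.8), at 852.8 CPM, and in blood sham 42 of 52 (80.8%, 67.5 to 90.4), at 595.3 CPM. The metastasis libraries had 9 of 17 cells in lung (52.9%, 27.8 to 77.0) and 13 of 16 in blood (81.2%, 54.4 to 96.0). These 4 intervals, taken before thinning, overlapped. After thinning the shares were 71.9% (23 of 32) in lung sham and 34.6% (18 of 52) in blood sham, whose median depths were 2846 and 4244 UMIs. T cells without a Foxp3 UMI carried Ctla4 in 17.4%, 17.5%, 16.6% and 13.3% of cells in lung (metastasis, sham) and blood (metastasis, sham). CD4 T cells with memory or activation markers came next, with 292.4 CPM in lung sham and 308.4 CPM in blood sham.

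**Figure D1:**
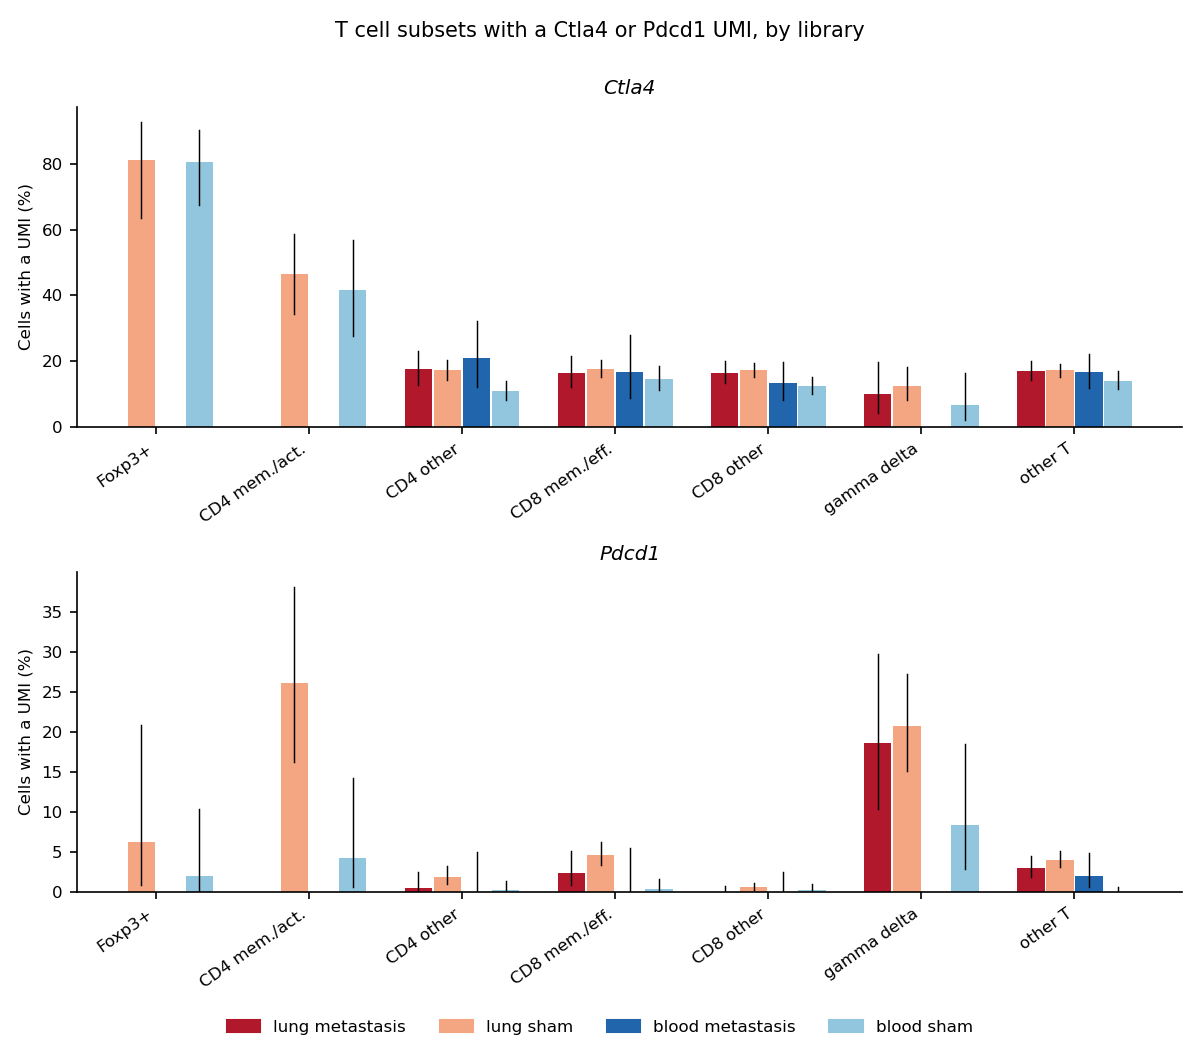
Share of cells with a Ctla4 UMI (top) or a Pdcd1 UMI (bottom), in percent, in 7 T cell subsets (mem./act. and mem./eff. mark cells with at least 2 memory, activation or effector markers) and 4 libraries. Bars are single libraries, black lines are exact binomial 95% intervals, and subsets under 30 cells in a library have no bar. Ctla4 peaks in Foxp3+ cells of both sham libraries (81.2% in lung and 80.8% in blood), and Pdcd1 in CD4 memory or activated cells and gamma delta cells of lung. Shares are drawn without thinning, after which the 2 Foxp3+ values were 71.9% and 34.6%.

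Lag3 was close to the detection limit. T cells held 7, 21, 1 and 2 UMIs in lung (metastasis, sham) and blood (metastasis, sham), and NK cells 5, 9, 0 and 2. The highest share of cells with a UMI in the 6 main classes was 0.862% (0.105 to 3.08) in NK cells of blood sham. Neutrophils had no Lag3 UMI in any library. No order of classes can be read at this depth.

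Tigit was higher in NK cells than in T cells in all 4 libraries. NK cells held 23.4 CPM in lung metastasis (47 UMIs), 16.1 in lung sham (69 UMIs), 52.0 in blood metastasis (7 UMIs in 46 cells) and 13.2 in blood sham (13 UMIs). T cells held 5.53, 6.62, 1.94 and 2.31 CPM on 4 to 112 UMIs. The intervals of the 2 classes did not overlap within any library. Neutrophils had no Tigit UMI, which in blood metastasis allows a share of up to 0.167%. CD8 T cells with memory or effector markers (8.84 CPM) and CD4 T cells with memory or activation markers (23.1 CPM, 6 UMIs) were the highest T cell subsets of lung sham that had more than 1 Tigit UMI.

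Havcr2, known as a receptor of exhausted T cells, was read mainly from monocytes here. Non-classical monocytes held 210.6, 169.5, 140.4 and 122.4 CPM in lung (metastasis, sham) and blood (metastasis, sham), with a UMI in 43.6%, 32.5%, 49.4% and 45.9% of cells. Neighbouring libraries in that order of CPM overlapped in their intervals. Classical monocytes held 125.3, 64.7, 32.3 and 13.9 CPM, on 52, 12, 34 and 15 UMIs, and both lung libraries were above both blood libraries. The 30 alveolar macrophages of lung sham had 61.5 CPM (11 UMIs). T cells had 0.572, 0.650, 0 and 0.318 CPM, with a UMI in 0.164%, 0.152%, 0 of 539 and 0.1325% of cells. B cells had one in 0.105%, 0 of 4099, 0.124% and 0.0519% of cells. The intervals of these 2 classes overlapped in each library, so T cells as a whole were not separated from B cells. In lung sham, 7 of the 11 T cell UMIs lay in 3 CD8 T cells with memory or effector markers. Another 2 lay in 2 of 69 CD4 T cells with memory or activation markers.

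Cd200 had its highest level outside the leukocytes. Endothelial cells of lung sham held 387.9 CPM (38 UMIs, 27 of 74 cells, 36.5%, 25.6 to 48.5) and epithelial cells 65.3 CPM in lung metastasis and 40.8 in lung sham. Among leukocytes B cells led, with 58.7, 30.2, 57.4 and 38.1 CPM in lung (metastasis, sham) and blood (metastasis, sham), on 200, 287, 240 and 1209 UMIs. Both metastasis libraries were above both sham libraries, and their intervals did not meet. In blood B cells the share with a UMI (12.1% in metastasis, 12.95% in sham) did not follow the CPM, and after thinning it was 4.65% and 4.05%. T cells had 9.35, 3.01, 13.5 and 5.81 CPM on 49, 51, 28 and 73 UMIs, higher in the metastasis library of each tissue. The share of T cells with a Cd200 UMI was 2.25%, 0.975%, 3.90% and 2.74%, against 0.178%, 0 of 38, 0.112% and 0 of 353 neutrophils. Red cell barcodes held 4.76, 9.16, 1.72 and 0 CPM of Cd200, on 23, 8, 4 and 0 UMIs. T cells of lung sham were not above this background, and their level was not read as expression.

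Cd200r1 was read from few cells. Alveolar macrophages of lung sham held 106.2 CPM (19 UMIs in 30 cells), while only 26 such cells were gated in lung metastasis. Blood classical monocytes held 13.3 CPM in metastasis and 10.2 in sham, and blood neutrophils 10.1 and 12.6, with no separation between arms. T cells held 3.63, 2.84, 3.39 and 4.69 CPM. B cells had 1 UMI in each sham library and none in the metastasis libraries. Its highest level lay in a class described in 1 library only.

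Vsir UMIs were found in every leukocyte class, and its level was highest in neutrophils and monocytes. Neutrophils held 263.5, 162.4, 333.9 and 246.9 CPM in lung (metastasis, sham) and blood (metastasis, sham), on 570, 12, 1645 and 255 UMIs. Classical monocytes held 243.4, 210.2, 269.5 and 251.2 CPM, with a UMI in 68.6% to 77.9% of cells, and non-classical monocytes 159.1 to 213.8 CPM. The alveolar macrophages of lung sham had 67.1 CPM (12 UMIs), below the T cells of that library. T cells followed with 92.2, 102.7, 87.6 and 112.5 CPM, and NK cells with 48.7 to 74.0 CPM. B cells were lowest at 19.8 to 24.1 CPM, a UMI in 3.89% to 7.54% of cells, and did not differ beyond counting error between libraries. Red cell barcodes held 7.25, 40.1, 3.44 and 33.9 CPM of Vsir, on 35, 35, 8 and 8 UMIs. B cells of both sham libraries were not above this background, and their level there was not read as expression. In blood sham, CD4 T cells with memory or activation markers stood out among T cells, with 261.3 CPM (33 of 48 cells) against 73.1 CPM in lung sham (14 of 69 cells).

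**Figure D2:**
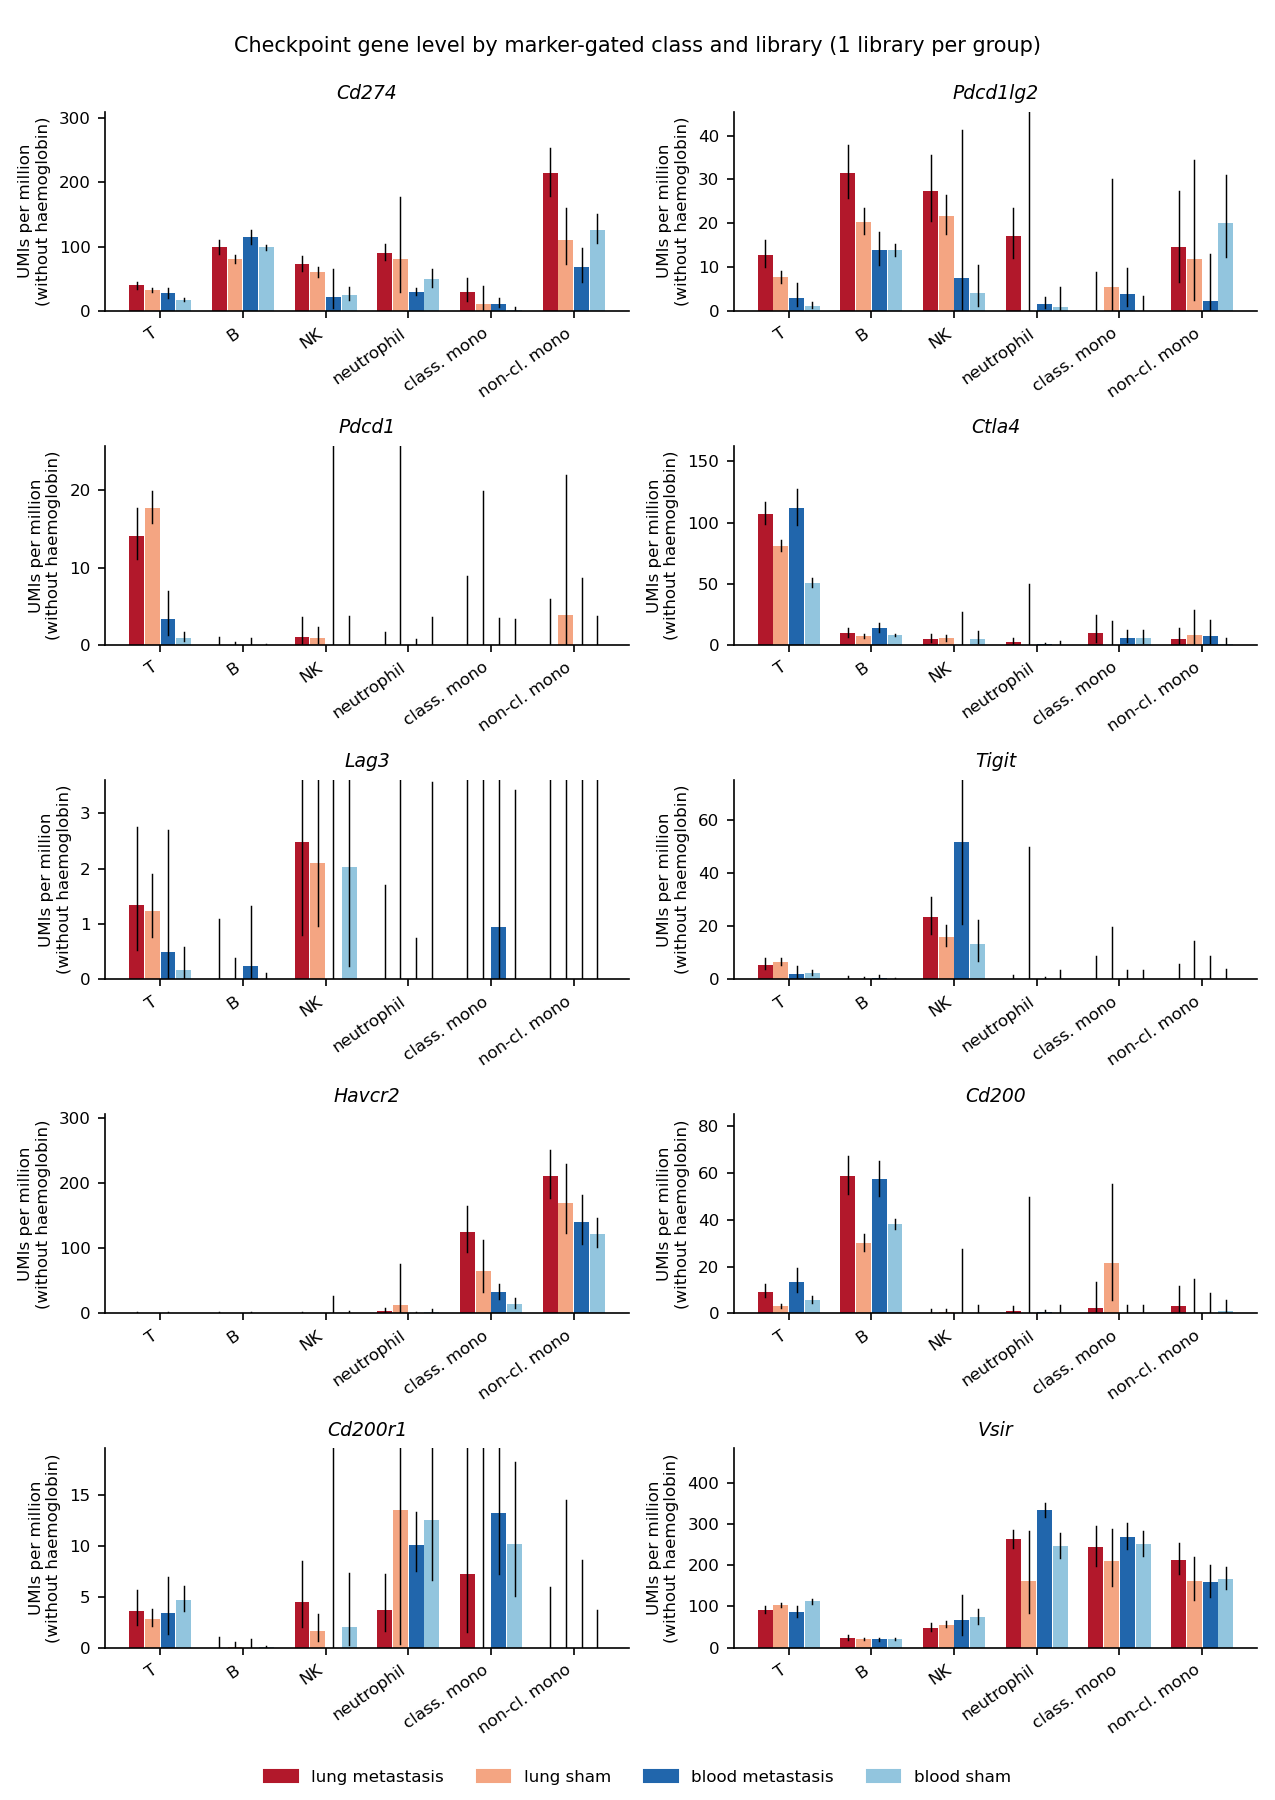
Level of each gene in CPM without haemoglobin (y axis, linear, own scale per panel) in 6 marker-gated classes and 4 libraries. Bars are single libraries and black lines exact Poisson 95% intervals for counting error, some of which run past the top of a panel. Havcr2 sits in the monocyte classes, Pdcd1 and Ctla4 in T cells, Tigit in NK cells and Cd200 in B cells. Vsir UMIs occur in all classes, with neutrophils and monocytes on top.

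The first question of the design is what the metastasis arm changed in each tissue. A gene counted as measured when the 2 libraries together held 10 or more UMIs of it, and as called when it differed by at least 1.5-fold with an interval that excluded equality. In lung, 6 of 33 measured pairs of gene and class were called higher and 0 lower. In blood, 9 of 29 were called higher and 3 lower. Lung T cells had 2 of 10 measured genes called against 3.72% of all measured genes, B cells 2 of 5 against 3.55%, NK cells 0 of 7 against 3.49%, neutrophils 0 of 4 against 5.16%, classical monocytes 1 of 3 against 5.43% and non-classical monocytes 1 of 4 against 5.91%. Blood T cells had 4 of 8 called against 5.57%, B cells 2 of 6 against 4.65%, NK cells 1 of 3 against 4.17%, neutrophils 1 of 3 against 25.3%, classical monocytes 2 of 5 against 8.44% and non-classical monocytes 2 of 4 against 8.52%. The median log2 ratio of the measured members was 0.20 in lung T cells and 0.88 in blood T cells, where that of all genes was 0.05 in each, and 0.39 and 0.40 in B cells of lung and blood, where that of all genes was 0.01 and 0.04. A gene needs counts to be measured, so these numbers describe the measured members only.

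Cd200 was called higher in the metastasis arm in B and T cells of both tissues. The log2 ratio was 1.63 (1.04 to 2.23) in lung T cells, 1.22 (0.54 to 1.87) in blood T cells, 0.96 (0.69 to 1.22) in lung B cells and 0.59 (0.39 to 0.79) in blood B cells. The sham level of lung T cells was not above that of red cell barcodes (9.16 CPM, 8 UMIs). Red cell barcodes of lung metastasis held 4.76 CPM, below lung metastasis T cells (9.35 CPM). In lung, CD4 T cells with fewer than 2 memory or activation markers gave a log2 ratio of 1.85 (0.62 to 3.07) on 13 UMIs in each library, a call lost after thinning. The remaining T cells, outside the named subsets, gave 2.00 (1.00 to 3.05) on 23 against 15 UMIs. In blood that last group gave 1.89 (0.84 to 2.93) on 16 against 19 UMIs. The blood B cell call sat at the 1.5-fold limit and was lost with 3 gate markers (0.58), with haemoglobin in the total, under median scaling and after thinning, while the lung B cell call and both T cell calls were kept in each alternative that gives calls at 1.5-fold. The lung B cell value is under 2-fold and was not called at that limit.

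Ctla4 was called higher in blood T cells of the metastasis arm, with 112.3 against 51.1 CPM, a log2 ratio of 1.14 (0.91 to 1.36). Foxp3+ cells were 16 of 539 T cells there and 52 of 2265 in sham, and without them the log2 ratio was 0.98. CD4 T cells with fewer than 2 memory or activation markers held 99.6 against 27.3 CPM (25 against 61 UMIs), a log2 ratio of 1.87 (1.13 to 2.56). CD8 T cells with memory or effector markers held 60.9 against 30.8 CPM, a log2 ratio of 0.98 (0.20 to 1.71), which was 0.02 after thinning. The calls of both subsets were lost after thinning. In lung T cells the ratio was 0.40 (0.26 to 0.55), in the same direction and under 1.5-fold. Blood B cells also gave a call, 14.1 against 8.28 CPM (59 against 263 UMIs), lost under the stricter cell filter and with mixed barcodes kept. Their sham level was not above that of red cell barcodes (25.4 CPM, 6 UMIs).

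The other T and NK receptor genes gave few calls. Pdcd1 was called higher in blood T cells (7 against 12 UMIs, log2 1.83), and the call was lost without Foxp3+ cells (1.48) and after thinning (0.75). In lung T cells, where Pdcd1 was far better counted, the log2 ratio was -0.33 (-0.72 to 0.04). Tigit was called higher in blood NK cells on 7 against 13 UMIs (log2 1.98, 0.41 to 3.41, lost after thinning), and in lung NK cells it gave 0.54 (-0.03 to 1.09). Havcr2 was called higher in classical monocytes of lung (125.3 against 64.7 CPM, log2 0.95, 0.03 to 2.00) and blood (32.3 against 13.9 CPM, log2 1.21, 0.30 to 2.20). Both Havcr2 calls were lost with mixed barcodes kept and after thinning, where the blood value turned to -0.98 on 3 against 5 cells with a UMI. Lung Havcr2 also lost its call without cells over 5% haemoglobin and under median scaling.

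Pdcd1lg2 was called higher in lung T cells (67 against 131 UMIs, log2 0.72, 0.28 to 1.16) and lung B cells (107 against 193 UMIs, log2 0.63, 0.27 to 0.98) of the metastasis arm. The T cell call was lost after thinning and the B cell call under the stricter cell filter, and the sham level of lung T cells was not above background. In lung red cell barcodes, the background class of this gene, the level moved the other way, 0.414 against 10.3 CPM. In blood B cells the log2 ratio was 0.01 (-0.42 to 0.40). Blood non-classical monocytes had 1 UMI in metastasis against 20 in sham, a log2 ratio of -3.10 (-8.47 to -0.46). After thinning no UMI was left in metastasis and 3 cells had one in sham, so no direction could be read.

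Cd274 was called in 5 of the 12 class and tissue pairs and in both directions. In non-classical monocytes it was higher in metastasis in lung, log2 0.95 (0.36 to 1.60), and lower in blood, log2 -0.90 (-1.53 to -0.31). It was also lower in blood neutrophils, with 30.04 against 49.4 CPM (148 against 51 UMIs), a log2 ratio of -0.72 (-1.19 to -0.23), and higher in blood T cells (log2 0.63, 0.18 to 1.06) and blood classical monocytes (12 against 2 UMIs, log2 2.62, 0.45 to 5.82). In blood sham, T cells (17.5 CPM) were close to red cell barcodes (17.0 CPM), and classical monocytes (1.85 CPM) were below them. Each of the 4 blood calls was lost with mixed barcodes kept and after thinning, the T cell call also without Foxp3+ cells (0.53), and the classical monocyte call also without cells that held a Pf4 UMI. Pf4 is a platelet gene, and 37.0% and 38.5% of classical monocytes and 31.0% and 39.1% of neutrophils in blood metastasis and blood sham carried a UMI of it. Its part in the Cd274 levels of those classes was not tested beyond leaving such cells out. The lung call in non-classical monocytes was lost after thinning only, at a log2 ratio of 0.33.

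Vsir was not called in any of the 6 main classes of either tissue. Its log2 ratio ran from -0.36 (-0.59 to -0.14) in blood T cells to 0.70 (-0.12 to 1.66) in lung neutrophils. In blood neutrophils it was 0.44 (0.24 to 0.63), with an interval above equality and a size under 1.5-fold. Blood CD8 T cells with fewer than 2 memory or effector markers, of which 96 of 152 and 479 of 632 carried 1, held 82.8 against 127.8 CPM, a log2 ratio of -0.63 (-1.07 to -0.21), and -0.45 (-1.35 to 0.35) after thinning.

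**Figure D3:**
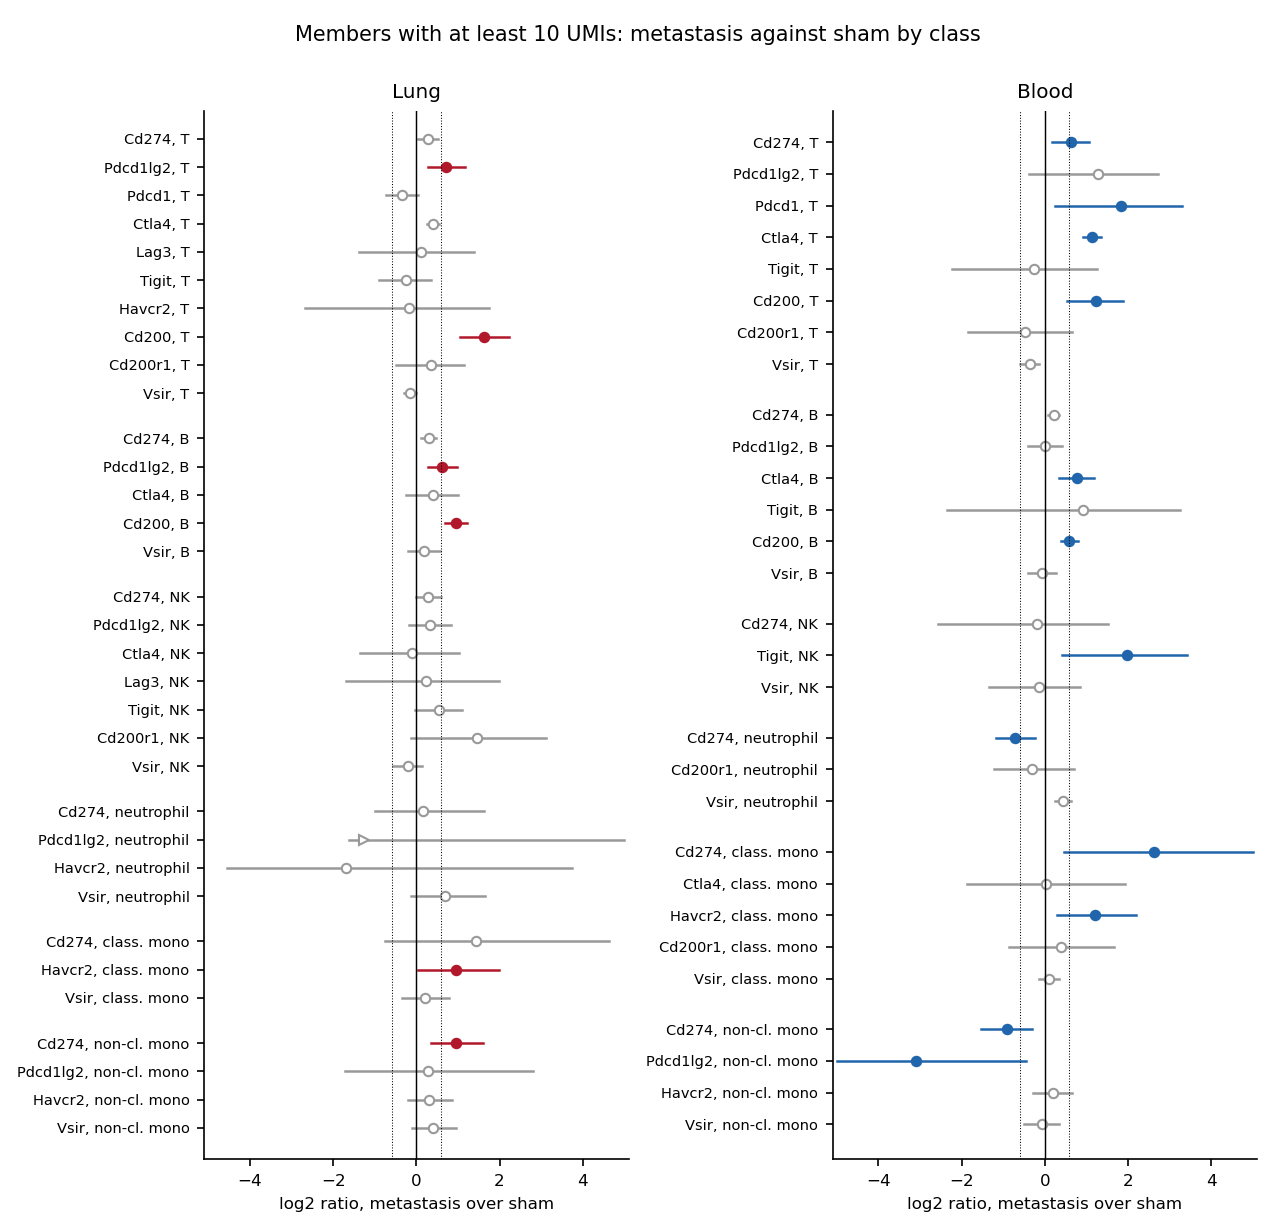
Log2 ratio of CPM, metastasis over sham (x axis), for every gene and class with at least 10 UMIs over both libraries, in lung (left) and blood (right). Points are the ratios of 1 library against 1 library, lines the 95% intervals for counting error cut at -5 and 5, filled points calls, dotted lines 1.5-fold, and the triangle a lower bound against a library with 0 UMIs. Cd200 is filled on the right of 0 in T and B cells of both tissues, and Cd274 in non-classical monocytes is on opposite sides of 0.

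The second comparison was lung against blood within each arm, where tissue and cell preparation cannot be told apart. In the sham arm, 6 of 10 measured genes were called higher in lung T cells and 2 lower, against 19.2% of all genes called in that class. B cells had 0 of 6 calls (15.6% of all genes), NK cells 2 of 6 (14.4%), neutrophils 0 of 3 (15%), classical monocytes 1 of 3 (9.29%) and non-classical monocytes 0 of 4 (10.4%). In the metastasis arm T cells had 3 of 8 (15.4%), B cells 1 of 5 (12.3%), NK cells 1 of 5 (6.63%), neutrophils 4 of 5 (38.7%), classical monocytes 2 of 5 (11.6%) and non-classical monocytes 1 of 4 (11.4%). The median log2 ratio of all genes was 0.10 and 0.12 in T cells of the sham and metastasis arms, and -0.43 and -0.37 in neutrophils.

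Pdcd1 was higher in lung than in blood T cells in both arms, with the largest ratio of the 10 genes in sham. There the log2 ratio was 4.22 (3.39 to 5.19), or 4.12 relative to the median of all genes, and in the metastasis arm 2.06 (0.95 to 3.42). After thinning, 1.60% of lung sham T cells and 0.177% of blood sham T cells had a UMI. Red cell barcodes had one in 1.41% after thinning in lung sham and in none in blood sham. The difference was present within subsets of the sham arm. CD4 T cells with memory or activation markers held 134.7 against 8.57 CPM (35 against 2 UMIs), gamma delta T cells 116.2 against 18.4 (68 against 6 UMIs) and CD8 T cells with memory or effector markers 15.7 against 0.385 (64 against 1 UMI). The remaining T cells, outside the named subsets, had 99 UMIs in lung sham and 0 in blood sham, at least 22.5-fold higher in lung against a floor of 3 counts in the blood library.

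Pdcd1lg2, Tigit and Lag3 were also higher in lung sham T cells, with log2 ratios of 2.70 (1.92 to 3.58), 1.52 (0.92 to 2.16) and 2.96 (0.93 to 6.10, on 21 against 2 UMIs). Pdcd1lg2 and Tigit gave 2.14 and 1.52 in the metastasis arm. For Pdcd1lg2 neither sham level was above its background in red cell barcodes, so the sham ratio compares levels that were not read as expression. Cd274 in T cells gave 0.89 in sham and 0.55 in metastasis, and Ctla4 0.67 in sham and -0.07 (-0.29 to 0.16) in metastasis. Cd200 and Cd200r1 were lower in lung sham T cells, at -0.95 and -0.73, and their intervals spanned equality in the metastasis arm. The Cd200 level of lung sham T cells was not above its background in red cell barcodes. Red cell barcodes of lung sham held Ctla4 at 34.3 CPM, Cd274 at 34.3 and Pdcd1 at 6.87 CPM, against 25.4, 17.0 and 0 in blood sham, on 0 to 30 UMIs, and their part in the T cell ratios was not tested.

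**Figure D4:**
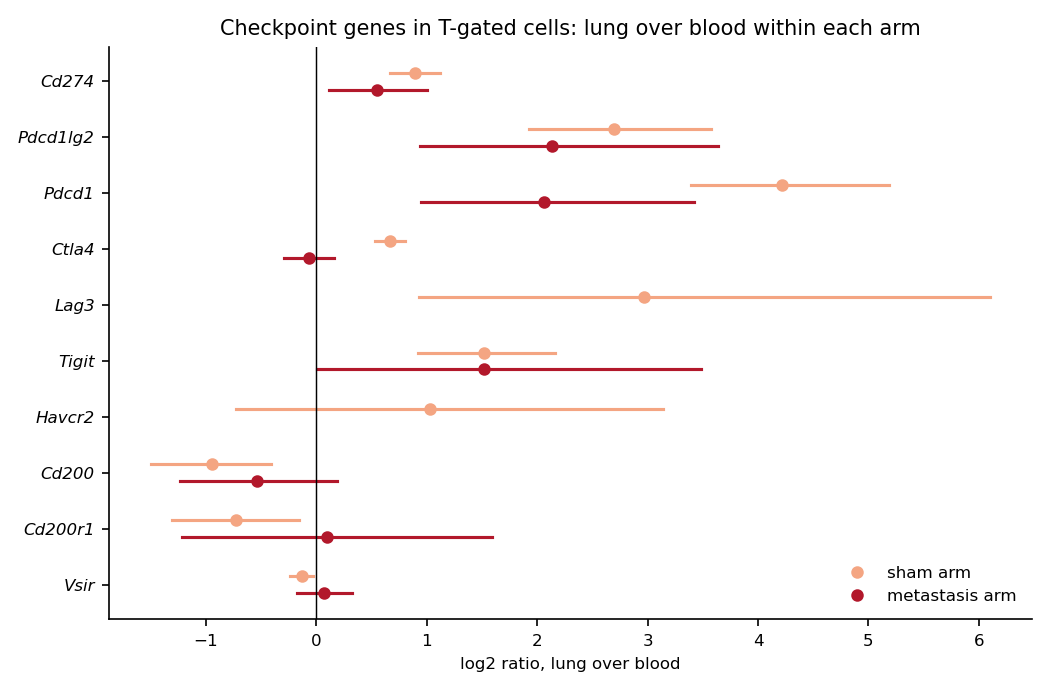
Log2 ratio of CPM in T-gated cells, lung over blood (x axis), for each gene measured, in the sham arm (light) and the metastasis arm (dark). Points compare 1 library with 1 library and lines are 95% intervals for counting error. Pdcd1, Pdcd1lg2 and Tigit lie above 0 in both arms, while Ctla4 lies above 0 in the sham arm and spans 0 in the metastasis arm.

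Outside T cells, Cd274 was higher in lung NK cells in both arms (log2 1.24 in sham and 1.71 in metastasis, the latter against 3 UMIs in blood). Pdcd1lg2 was higher in lung NK cells of sham (log2 2.42) and in lung B cells of the metastasis arm (log2 1.18, 0.70 to 1.67). Blood sham NK cells (4.05 CPM, 4 UMIs) were not above red cell barcodes there (8.48 CPM, 2 UMIs). The thinned share of lung sham NK cells (2.40%) was close to that of red cell barcodes (2.35%). Cd274 and Pdcd1lg2 were both higher in lung neutrophils of the metastasis arm. In those neutrophils Cd274 was 90.6 against 30.04 CPM (log2 1.59, 1.28 to 1.91, or 1.96 relative to the median of all genes) and Pdcd1lg2 17.1 against 1.62 CPM (log2 3.40). Havcr2 there rested on 9 against 4 UMIs, and Cd200r1 was lower in lung (8 against 50 UMIs, log2 -1.46). Non-classical monocytes of the metastasis arm held 213.8 against 67.9 CPM of Cd274 (log2 1.66), while the sham ratio spanned equality. Havcr2 was higher in lung classical monocytes in both arms, log2 2.22 in sham and 1.96 in metastasis. Cd274 in classical monocytes of the metastasis arm rested on 12 UMIs in each tissue (log2 1.35, 0.06 to 2.63). Metastasis against sham and lung against blood share libraries, so these values are not independent of those above.

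Pdcd1 was found more often in lung T cells that also held Ctla4. In lung sham, 7.63% (5.91 to 9.65) of 826 T cells with a Ctla4 UMI also had a Pdcd1 UMI, against 2.98% (2.46 to 3.58) of 3788 cells without, at median depths of 3489 and 3526 UMIs. Lung metastasis gave 5.57% (3.34 to 8.66) against 2.06% (1.41 to 2.92). Tigit was found in 11.9% (7.54 to 17.7) of 176 Pdcd1-positive T cells of lung sham against 1.83% (1.452 to 2.263) of the rest, at median depths of 3270 and 3534 UMIs. In lung metastasis these shares were 6.12% (1.28 to 16.9, 3 of 49 cells) and 1.35% (0.867 to 2.00), with overlapping intervals. Tigit with Ctla4 differed between the lung libraries: 4.36% (3.07 to 5.98) of Ctla4-positive T cells against 1.74% (1.35 to 2.21) of the rest in sham, and 0.929% (0.192 to 2.69) against 1.60% (1.03 to 2.37) in metastasis, where the intervals overlapped. In blood no such difference was detectable for Ctla4 and Pdcd1 (0.594% against 0.467% in sham). The ligands showed less of it: B cells with a Cd274 UMI had Pdcd1lg2 in 5.70% (3.95 to 7.91) of cells in lung sham, against 4.20% (3.57 to 4.92) of cells without.

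The lists of related genes cover other inhibitory receptors (10), costimulatory receptors (8), further ligands (22), CD200 receptor relatives (3) and signalling genes (18). In lung T cells none of the 8, 8, 14, 2 and 18 measured genes of these lists was called between the arms, where 3.72% of all measured genes were. In blood T cells Btla, an inhibitory receptor for HVEM, was higher (84.2 against 45.1 CPM, log2 0.90), as were the costimulatory receptor Tnfrsf4 (OX40; 10.7 against 4.69 CPM, log2 1.18) and Socs1, a feedback inhibitor of cytokine signalling (59.0 against 22.2 CPM, log2 1.41). Ptpn6, the phosphatase SHP-1, was lower there (31.4 against 53.8 CPM, log2 -0.78). These were 1 of 8, 1 of 8 and 2 of 17 measured genes of their lists, and no ligand (0 of 9) was called, where 5.57% of all measured genes were.

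Among ligands, Cd80, a ligand of CTLA-4 and CD28, was lower in blood neutrophils of the metastasis arm (142.9 against 345.7 CPM, log2 -1.27) and higher in lung B cells (8.51 against 3.26 CPM, log2 1.38). Cd86, the other ligand of that pair, was lower in lung neutrophils (25.4 against 94.7 CPM, on 55 against 7 UMIs). Cd47, which signals through SIRP alpha, was higher in blood neutrophils (455.8 against 183.0 CPM, log2 1.32), as was the galectin Lgals3 (739.8 against 346.6 CPM). In that class 3 of 11 measured ligands were called higher and 3 lower, where 25.3% of all measured genes were called. In non-classical monocytes Irf1, an interferon-responsive transcription factor, was higher in metastasis in lung (231.5 against 126.1 CPM, log2 0.88) and lower in blood (65.5 against 103.4 CPM, log2 -0.66). In lung it was the 1 signalling gene called of 14 measured, against 5.91% of all measured genes. In blood, Rasa2 (25.7 against 60.2 CPM, log2 -1.23) and Jak2 (53.8 against 89.3 CPM, log2 -0.73) were also lower. These were 3 of 13 measured signalling genes, against 8.52% of all measured genes. A link of these genes to Cd274 was not tested. Blood classical monocytes had higher Lair1 (45.5 against 12.1 CPM) and Pilra (92.04 against 38.9 CPM), inhibitory receptors of myeloid cells, and lower Btla (5.69 against 21.3 CPM), 3 of 5 measured in that list against 8.44% of all genes. Of the 3 relatives of Cd200r1, 2 were measured in T cells of each tissue and none was called between the arms. Of all measured genes, 3.72% were called in lung T cells and 5.57% in blood T cells.

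Over 53 profiles of class, subset and library, the genes most like each member were found by Pearson's correlation of log2(CPM + 1), given as a description because profiles of 1 library share its depth and preparation. Ctla4 was most like Cd5 (r = 0.883), another inhibitory receptor of T cells, and Lrig1. Havcr2 was most like Lrp1 (0.923), the scavenger receptor of monocytes and macrophages, and Vsir like Fxyd5 (0.911). Tigit was followed by Gm33104 (0.854), Ppm1j and Fasl, the death ligand of cytotoxic cells. Pdcd1 was most like Tnfsf11 (0.782), which encodes RANKL. Cd274 was most like Med13 (0.797), Cd200 like Ly6a (0.666) and Cd200r1 like Ap3s1 (0.645). Pdcd1lg2 had Gm50012 (0.684) and its neighbour Cd274 (0.679) as its closest genes.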

How the data were processed

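Droplet single-cell RNA was measured in 4 libraries, 1 per tissue and arm. What the authors deposited are UMI counts for each gene in each barcode, not normalised. The submitters' processing notes name Cell Ranger 7.0.0, GRCm38.p6, Seurat 4.3.0.1 and R 4.3.1 without their roles, and whether intronic reads were counted was not given in the sources used here. No barcode held under 500 UMIs.

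The cell filter asked for at least 200 genes and no more than 10% mitochondrial UMIs. Each cell went to the class with the largest share of its marker list detected (at least 2 markers), ties stayed without a class, and barcodes with at least 3 and 50% of the markers of a second lineage were left out. No doublet caller was run. T cells were split by Foxp3, Cd8a or Cd8b1, Cd4 and Trdc UMIs. Those with both Cd4 and Cd8 UMIs and no Foxp3 UMI stayed with the remaining T cells. Classes with at least 30 cells were described. UMIs were summed per class and library and divided by the class total without haemoglobin. CPM carry exact Poisson, shares exact Clopper-Pearson and ratios exact conditional binomial 95% intervals. A library with 0 UMIs was set to a floor of 3 counts, and the limit of a share at 0 is 3 counts of the cells. With 1 library per group there was no test and no p-value. The members, gene lists and marker lists were chosen with earlier results of these data known. All 10 members were named, and from each related list at most the 4 called genes with the largest ratio. Among related genes, Cd244 is listed in the files as Cd244a. The median of all genes used genes with at least 100 UMIs. Ratio calls were checked on simulated Poisson counts of B cells only, with 2-fold changes in genes of at least 100 UMIs. That check does not cover smaller classes, genes with fewer UMIs or differences between replicate libraries. Python 3.11.15, numpy 2.4.6, scipy 1.17.1 and pandas 2.3.3 were used.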

Additional observations from a re-analysis of the deposited data

Results flagged for a closer look

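Cd274 in non-classical monocytes moved in opposite directions in the tissues: the log2 ratio of metastasis over sham was 0.95 in lung (133 against 28 UMIs) and -0.90 in blood (29 against 126 UMIs). Each arm and tissue is 1 library, and the difference between the tissues was not tested. In these cells Irf1 was called in the same directions, 0.88 in lung and -0.66 in blood, while Havcr2 (0.31 and 0.20) and Vsir (0.40 and -0.07) were not called in either tissue. The signalling genes Jak2 (-0.73) and Rasa2 (-1.23) were called lower in blood only. A link of Irf1, Jak2 or Rasa2 to Cd274 was not tested. With mixed barcodes kept or after thinning the blood value was no longer called, and after thinning neither was the lung value.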

How the results depend on the processing

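Of the 6 higher and 0 lower calls in lung, 3 higher calls remained after thinning each cell to 1000 UMIs and 1 at a 2-fold limit, with 0 lower calls in both. Of the 9 higher and 3 lower calls in blood, 5 and 1 remained with mixed barcodes kept, and 3 and 0 after thinning. At a 2-fold limit 1 of the lower calls remained. The higher calls of at least 2-fold in T cells were Cd200 (log2 1.22), Ctla4 (1.14) and Pdcd1 (1.83). The others were Tigit in NK cells (1.98) and Havcr2 (1.21) and Cd274 (2.62) in classical monocytes. Thinning removes most UMIs, so fewer pairs can be called. After thinning, 2 values changed sign: Havcr2 in blood classical monocytes (-0.98) and Pdcd1lg2 in blood non-classical monocytes (0.90, a value set by the floor of 3 counts for a library at 0). Of 113 values, subsets included, 85 stayed within their main interval after thinning and 110 with mixed barcodes kept, and of 29 calls 9 and 21 were kept. The stricter cell filter, 3 gate markers, haemoglobin in the total, exclusion of mitochondrial and ribosomal genes, median scaling, and cells over 5% haemoglobin or with a Pf4 UMI left out kept all 113 values within their intervals and 27 to 29 calls. The mean of each cell's CPM stayed within the main interval in 111 of 112 values. Leaving out cells with a Pf4 UMI and Foxp3+ cells was chosen after seeing the data. Alternatives were run for the arms and not for lung against blood. No paired analysis was possible because each group has 1 library, and no replicate could be left out. Depth limits Lag3, blood NK cells, lung sham neutrophils and classical monocytes most.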
